A study of Mus musculus with 34 samples.

Results

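The genes described here form a module of 32 members of the unfolded protein response and the integrated stress response. They were picked by symbol, with earlier results of these data known, from the 35976 symbols of a table of gene expression in 34 mouse livers. All 32 were in the table, and all 32 passed the filter on low values (at least 5 livers with an FPKM not under 1), which 19295 genes passed. FPKM, the unit of all levels below, divides a gene's fragment count by its transcript length and by the library's total.

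Proteins that enter the endoplasmic reticulum (ER) are folded there by chaperones, lectins and disulfide isomerases, and misfolded ones are sent back to the cytosol for destruction (ER-associated degradation, ERAD). When folding falls behind, the membrane sensors IRE1 (gene Ern1), PERK (Eif2ak3) and ATF6 start the unfolded protein response. IRE1 splices the mRNA of Xbp1, ATF6 is cut in the Golgi to a transcription factor, and PERK phosphorylates the initiation factor eIF2. That phosphorylation is shared with kinases that sense amino acid shortage, viral RNA or lack of haem, which is why the response downstream of it, led by the transcription factor ATF4, is called integrated. Hepatocytes secrete most plasma proteins and hold a large ER, and the liver is a tissue in which these pathways are much studied in obesity and fatty liver. An FPKM per gene does not separate spliced from unspliced Xbp1 mRNA, cleaved from whole ATF6, or phosphorylated from other PERK and eIF2, so the values below are mRNA levels only.

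All mice were C57BL/6, homozygous for TetO-Cas9, a Cas9 gene under a tetracycline-responsive promoter, and for Rosa-rtTA, the transactivator that such a promoter needs. Each received an adeno-associated virus (AAV) with a guide RNA and 3 months of Western diet, a diet high in fat and sugar, and total RNA of the liver was sequenced. Guides were directed at Bcl6 (a transcriptional repressor, 5 livers), Irs1 (a docking protein of the insulin receptor, 5 livers), Smyd2 (a lysine methyltransferase, 6 livers), Srebf1 (the transcription factor SREBP-1 of fatty acid synthesis, 5 livers) or Tbx3 (a T-box transcription factor, 7 livers). The 6 control livers had guides against GFP (sgGFP, 4 livers) or LacZ (sgLacZ, 2 livers), genes that mice lack. The controls thus share Cas9, the transactivator, the virus and the diet with the knockouts, and no liver on another diet was compared. The labels give no age and no share of edited cells, and whole tissue was measured, so fewer cells of a type and less RNA per cell cannot be told apart. Numbered livers were taken as separate animals. If some are not, the p-values describe the scatter of these libraries, which may be technical.

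The steps in the low FPKM values implied 2110000 to 3130000 reads per liver, a shallow depth if it holds. It was inferred and not reported, and in Srebf1 KO replicate 3, 110 gene values fitted it and 92 the next best depth. The target's own mRNA was below the control range in 4 of 5 Srebf1 KO livers (498.8 to 631.7 FPKM against 1095 to 2177 in control), in 2 of 6 Smyd2 KO livers, and in 0 of the Bcl6, Irs1 and Tbx3 KO livers. Irs1 mRNA was 25.38 to 35.79 FPKM (median 28.89) in Irs1 KO against 20.18 to 27.56 (median 22.88) in control, and Tbx3 mRNA 80.05 to 248.5 (median 103.5) in Tbx3 KO against 45.89 to 147.1 (median 86.08), so that neither target's mRNA was lower in the livers labelled for it. Bcl6 mRNA was 46.69 to 100.1 (median 60.4) in Bcl6 KO against 27.12 to 104.1 (median 71.9). The library labelled Srebf1 KO replicate 1, at 1908 FPKM, lay inside the control range, and results of that group without it are gathered in a paragraph of their own. The 12 hepatocyte markers were detected in all groups, and their summed FPKM was 84130 to 107700 in control and 166100 to 225200 in Bcl6 KO. No member passed the test between sgLacZ and sgGFP (limma, smallest adjusted p = 0.412, 6 members with an unadjusted p under 0.05), where 0.0104% of all genes passed. The median member was 0.28 higher in sgLacZ on the log2 scale.

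Many of the ER members carry the ER stress response element (ERSE), to which ATF6 and the NF-Y complex bind, in their promoters. The stretches below are shown so that members that rose in a knockout (Hspa5, Hsp90b1, Creld2, Syvn1, Herpud1) can be read beside one that did not (Canx) and beside the genes of the ATF4 branch (Asns, Atf3). They come from RefSeq windows on GRCm38.p6 that hold 250 bases before and 50 after an annotated start, available for 29 of the 32 members (not Hyou1, Manf or Atf6). The ERSE, spelled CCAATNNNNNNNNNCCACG on either strand, was in the windows of 9 members (Calr, Canx, Creld2, Derl3, Dnajc3, Hsp90b1, Hspa5, Pdia6 and Syvn1), against 0.119% of all 32851 windows. The related ERSE-II, ATTGG and CCACG with 1 base between them, was in those of Herpud1 and Dnajb11, against 0.0365% of all windows. The XBP1-binding UPRE, TGACGTGG, was in 0 of the 29 and in 0.676% of all windows. The amino acid response element bound by ATF4 with a C/EBP factor (CARE), TGATGNAA, was in the windows of Asns, Atf3, Chac1, Herpud1 and Trib3, against 3.97% of all windows. A match is a description of the letters and not a measured binding site. Each stretch is printed in the direction of transcription, with the matched motif in capitals on whichever strand it lies.
Hspa5, ERSE, chr2:34771984-34772083, plus strand: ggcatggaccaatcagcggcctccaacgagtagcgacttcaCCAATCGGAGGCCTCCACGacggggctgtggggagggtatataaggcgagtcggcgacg
Hsp90b1, ERSE on both strands, chr10:86705523-86705666, minus strand: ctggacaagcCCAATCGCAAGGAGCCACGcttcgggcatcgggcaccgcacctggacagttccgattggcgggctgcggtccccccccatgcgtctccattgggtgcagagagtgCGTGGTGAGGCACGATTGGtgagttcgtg
Creld2, ERSE on the opposite strand, chr15:88819479-88819578, plus strand: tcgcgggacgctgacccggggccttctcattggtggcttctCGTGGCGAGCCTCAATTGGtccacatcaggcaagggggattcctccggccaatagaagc
Syvn1, ERSE, chr19:6046476-6046575, plus strand: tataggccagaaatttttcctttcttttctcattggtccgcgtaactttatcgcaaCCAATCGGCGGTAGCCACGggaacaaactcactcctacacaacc
Canx, ERSE, chr11:50325760-50325859, minus strand: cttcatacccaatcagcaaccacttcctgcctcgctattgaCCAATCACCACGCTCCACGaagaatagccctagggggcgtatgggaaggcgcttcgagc
Herpud1, ERSE-II, chr8:94386329-94386428, plus strand: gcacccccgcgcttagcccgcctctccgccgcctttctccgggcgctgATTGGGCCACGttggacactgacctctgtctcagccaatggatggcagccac
Asns, CARE, chr6:7693210-7693309, minus strand: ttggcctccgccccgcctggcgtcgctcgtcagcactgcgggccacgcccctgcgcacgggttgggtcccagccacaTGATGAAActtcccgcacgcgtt
Atf3, CARE on the opposite strand, chr1:191183390-191183489, minus strand: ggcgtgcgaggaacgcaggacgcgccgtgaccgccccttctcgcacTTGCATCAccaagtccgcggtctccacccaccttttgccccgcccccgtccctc

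In Irs1 KO livers 12 of the 32 members rose and 1 fell, against 3.24% and 7.61% of all genes tested. The 12 were chaperones and their cofactors (Hspa5, Hyou1, Hsp90b1, Sdf2l1, Creld2), the J proteins Dnajb9 and Dnajb11, the ERAD genes Herpud1, Sel1l, Syvn1 and Edem1, and the sensor Ern1. The one that fell was the stress-inducible transcription factor Atf3. By role, 5 of 8 chaperones and lectins, 2 of 3 J proteins, 4 of 5 ERAD genes and 1 of 7 sensors and transcription factors rose, and 0 of 3 disulfide isomerases, 0 of 4 ATF4 branch targets and 0 of 2 translocation genes. The median log2 change of the 32 members was 0.34, beside -0.12 for all genes tested. The count of 12 was 6 without sgGFP replicate 1, 7 without Irs1 KO replicate 3 or 4, and 15 without sgLacZ replicate 2. The share of all genes that passed in those fits is not given here.

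In Bcl6 KO, Edem1 alone rose and 0 members fell (2.95% and 3.19% of all genes). In Tbx3 KO, Hsp90b1 and Herpud1 rose and 0 fell (1.17% and 1.37% of all genes). In Srebf1 KO, 0 members passed in either direction (0.197% and 0.181% of all genes), with a members' median of 0.38 beside -0.05 for all genes. There 15 members had an unadjusted p under 0.05, all of them higher. In Smyd2 KO, 0 members passed (0.0% and 0.0% of all genes), with a smallest adjusted p of 0.311 and 2 members at an unadjusted p under 0.05. All these p-values are from limma, adjusted over all genes tested, and the 5 comparisons share the same 6 controls.

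The scaling of the libraries sets part of these counts. Of all genes that passed in Irs1 KO, 29.9% were higher, and 69.5% when each liver was scaled to its median and 49.3% after quantile normalization. The same shares were 48.1%, 66.2% and 59.3% in Bcl6 KO, 52.1%, 70.7% and 57.7% in Srebf1 KO, and 45.9%, 69.8% and 49.6% in Tbx3 KO. With median scaling 20 members rose in Irs1 KO, 5 in Srebf1 KO and 4 in Tbx3 KO. Beside them, 1689, 53 and 382 of all 19295 genes tested rose. A setting added after the data were seen instead scaled every liver to its mean log2 level of 12 hepatocyte markers. With it, 3 members were higher and 4 lower in Irs1 KO, 0 and 20 in Bcl6 KO, and 0 and 1 in Tbx3 KO. Of all 19295 genes tested, 183 were higher and 9224 lower in Irs1 KO, 282 and 8613 in Bcl6 KO, and 89 and 2264 in Tbx3 KO. The median of all genes was then -0.56 in Irs1 KO and in Bcl6 KO, and the median of the members -0.10 and -0.48. This scaling moves all genes of a liver by 1 amount, so a small rise reverses whichever gene it is in. Of the 12 markers that set the amount, 7 had themselves passed as higher in Bcl6 KO and 6 in Irs1 KO. The values given below under this scaling are therefore no separate check of single genes.

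**Figure D1:**
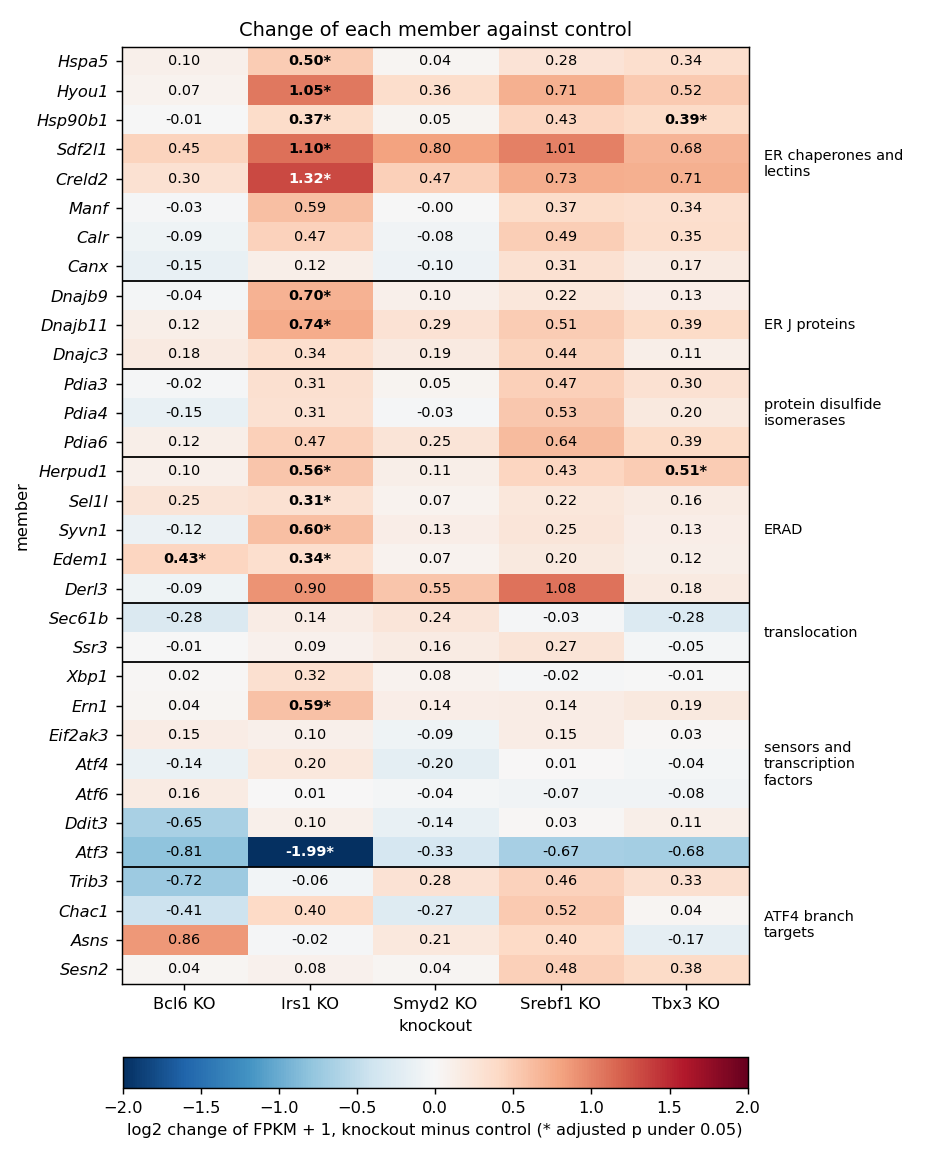
Log2 change of FPKM + 1, knockout minus control, for the 32 members (rows, by role) in the 5 knockouts (columns), with a star where the adjusted p is under 0.05. The stars gather in Irs1 KO among chaperones, J proteins and ERAD genes, with 12 members higher and Atf3 lower.

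Hspa5 encodes BiP, the most abundant Hsp70 chaperone of the ER and the protein that holds the sensors inactive. Its FPKM was 2592, 2627, 2575, 3016 and 2158 in the 5 Irs1 KO livers, and from 1385 to 2580 (median 1727) in the 6 controls. Irs1 KO replicates 1, 2 and 4 were above every control, and replicates 3 and 5 were not. The log2 change was 0.50, with an SE of 0.16 (limma adjusted p = 0.0407). The call was lost when any of 8 single livers was left out (sgGFP replicates 1, 2 and 4, sgLacZ replicate 1, and Irs1 KO replicates 1, 2, 3 and 4). It was also lost with no filter, after quantile normalization, with replicate number as a block, when only Irs1 KO and control were fitted, and when scaled to the hepatocyte markers, where the change was 0.06. In the other knockouts the log2 change of Hspa5 was from 0.04 in Smyd2 KO to 0.34 in Tbx3 KO, and none passed.

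Hyou1 encodes the large ER chaperone that exchanges the nucleotide of BiP, and it gave the smallest adjusted p of the module. Its FPKM was 759.6, 656.5, 777, 690.7 and 617.9 in Irs1 KO and 248.2 to 448.5 (median 343.5) in control, so that every Irs1 KO liver was above every control. The log2 change was 1.05, with an SE of 0.17 (limma adjusted p = 0.000156), a ratio of means of 2.03. Srebf1 KO livers held 631.5, 396.2, 612.3, 592.5 and 551.9 FPKM, with a log2 change of 0.71 (SE 0.17) and an adjusted p of 0.0508 by limma. Replicate 2 alone of these lay inside the control range, and the highest value was that of replicate 1. Tbx3 KO (363.7 to 588, median 497.7) and Smyd2 KO (322.3 to 527.5, median 455.4) overlapped the control, and Bcl6 KO (438.9, 468.4, 241.8, 305.4 and 358.8) spanned it.

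Sdf2l1 encodes a cofactor that joins BiP and the J protein encoded by Dnajb11. Its FPKM was 23.72, 25.92, 37.62, 38.92 and 37.65 in Irs1 KO and 7.836 to 23.17 (median 16.23) in control, with no overlap. The log2 change was 1.10, with an SE of 0.24 (limma adjusted p = 0.00375). Srebf1 KO livers held 36.21, 25.44, 38.95, 26.1 and 26.88 FPKM, all above the control range, replicate 1 included, with a log2 change of 1.01 (SE 0.24) and a limma adjusted p of 0.052. Sdf2l1 was also the member with the smallest p in Smyd2 KO (19.32 to 31.06, median 26.06, log2 change 0.80, SE 0.23, limma adjusted p = 0.311).

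Creld2, which encodes a secreted and ER-resident protein with isomerase activity, had the highest log2 change among the members that rose. Its FPKM was 59.48, 42.7, 58.17, 33.01 and 37.08 in Irs1 KO and 6.47 to 44.84 (median 17.13) in control. The control liver sgLacZ replicate 2, at 44.84, lay within the Irs1 KO range, and the next highest control, sgGFP replicate 3 at 32.54, just below it. The log2 change was 1.32, with an SE of 0.32 (limma adjusted p = 0.00682), and it missed the threshold when only Irs1 KO and control were fitted (adjusted p = 0.0565).

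Hsp90b1 encodes the Hsp90 chaperone of the ER, known for clients such as Toll-like receptors and integrins. Its FPKM was 2900, 2562, 2734, 2947 and 2614 in Irs1 KO, 2272 to 3449 (median 2890) in Tbx3 KO and 1619 to 2591 (median 2178) in control. It rose in both, by a log2 change of 0.37 (SE 0.12, limma adjusted p = 0.0395) and 0.39 (SE 0.11, limma adjusted p = 0.0495). In Srebf1 KO the values were 2974, 2503, 2981, 2903 and 2943, a log2 change of 0.43 (SE 0.12) with a limma adjusted p of 0.103. The Tbx3 KO call was lost in 25 of the 34 fits that left out 1 liver. The Irs1 KO call was lost in 8, those without any 1 of the 5 Irs1 KO livers or sgGFP replicate 1, 2 or 4. Most of the 34 fits left out a liver of a group outside that comparison. Other settings also ended the calls, among them no filter, quantile normalization and the fit of 2 groups alone for both. Scaled to the hepatocyte markers, the change was -0.06 in Irs1 KO and 0.14 in Tbx3 KO. The remaining chaperones passed in no comparison with control. Manf, whose product binds BiP, and the lectins Calr and Canx had log2 changes of 0.59, 0.47 and 0.12 in Irs1 KO, with SE of 0.22, 0.17 and 0.10.

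**Figure D2:**
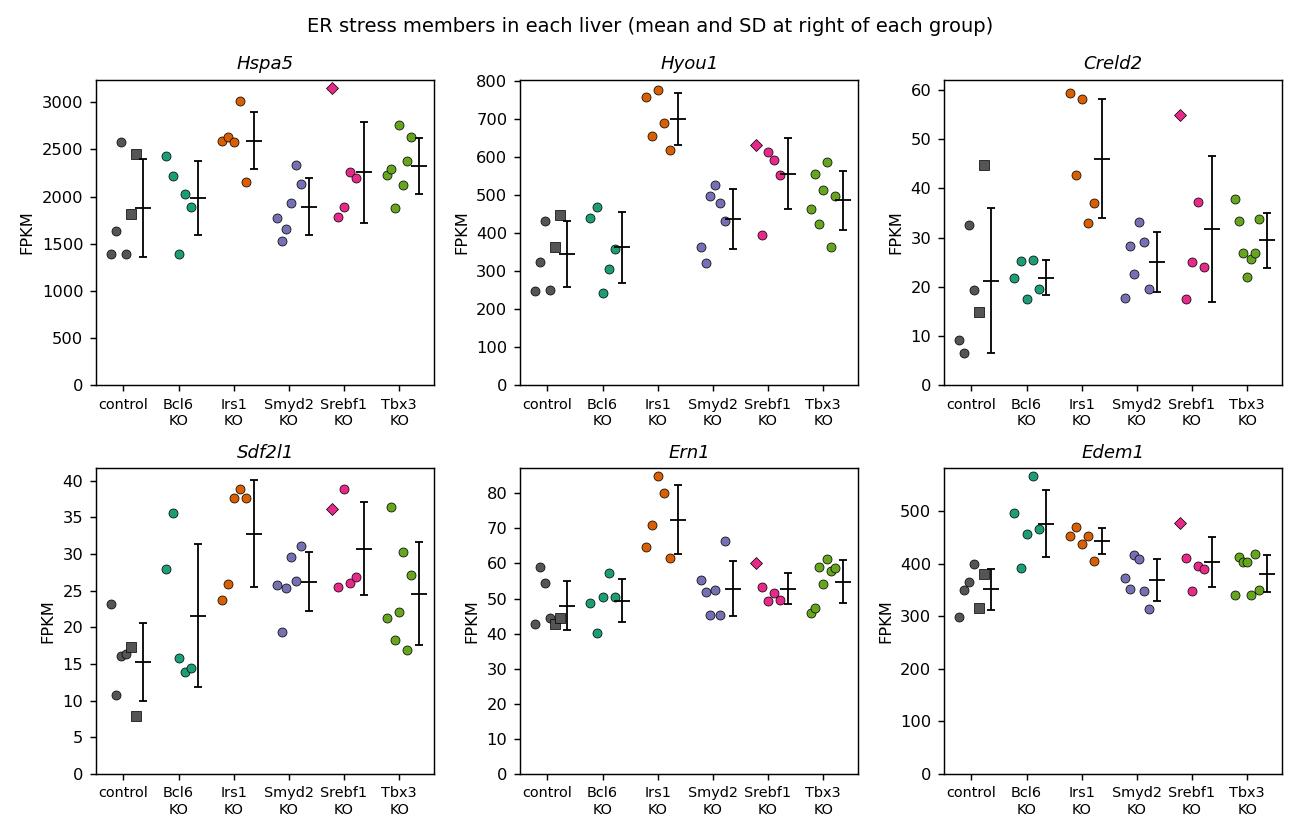
FPKM of 6 ER members in each liver, by group (circles, with squares for sgLacZ and a diamond for the library labelled Srebf1 KO replicate 1), with the mean and SD beside each group. Hyou1, Sdf2l1 and Ern1 in Irs1 KO lie above all controls, while Hspa5 and Creld2 overlap them.

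J proteins bring unfolded clients to BiP and start its ATP cycle. Dnajb11 was 156.2, 154.7, 173.2, 172.4 and 143.6 FPKM in Irs1 KO and 61.92 to 141 (median 105.7) in control. The groups did not overlap, and the log2 change was 0.74, with an SE of 0.16 (limma adjusted p = 0.00365). Dnajb9, whose product also restrains IRE1, was 97.62, 132.7, 148, 130.8 and 103.5 FPKM in Irs1 KO and 49.93 to 113.6 (median 75.42) in control, with a log2 change of 0.70 (SE 0.22, limma adjusted p = 0.0334). The call on Dnajb9 was lost without any 1 of 5 livers (sgGFP replicates 1 and 4, and Irs1 KO replicates 2, 3 and 4). Scaled to the hepatocyte markers, Dnajb11 and Dnajb9 had changes of 0.30 and 0.26 and did not pass. Dnajc3, an inhibitor of eIF2 kinases, had a log2 change of 0.34 in Irs1 KO (SE 0.12, limma adjusted p = 0.0577) and of 0.44 in Srebf1 KO (SE 0.12, limma adjusted p = 0.083).

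Protein disulfide isomerases form and reshuffle the disulfide bonds of secreted proteins, and none of the 3 members passed in any knockout. Their log2 changes in Srebf1 KO were 0.64 for Pdia6, 0.53 for Pdia4 and 0.47 for Pdia3, with limma adjusted p-values of 0.0734, 0.0719 and 0.131. In Irs1 KO they were 0.47, 0.31 and 0.31, none of which passed. Pdia6 was 215.6, 149.9, 179.5, 169.3 and 191.9 FPKM in Srebf1 KO against 78.01 to 147.4 (median 115.5) in control, so that all 5 libraries labelled Srebf1 KO were above all controls. The highest was replicate 1, whose Srebf1 mRNA lay inside the control range.

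The 4 ERAD genes that rose in Irs1 KO encode the core of the HRD1 ubiquitin ligase and proteins that feed it. Herpud1, a scaffold of that complex, was 729, 686.9, 613.3, 763.8 and 688.9 FPKM in Irs1 KO, all above the control range of 343.4 to 566.3 (median 492.2). Its log2 change was 0.56 (SE 0.14, limma adjusted p = 0.00919). In Tbx3 KO it rose by 0.51 (SE 0.13, limma adjusted p = 0.0263), with values of 531.2 to 806 (median 688.2) and only replicate 7 inside the control range. That call was lost without any 1 of 5 livers (sgGFP replicates 1 and 2, and Tbx3 KO replicates 2, 3 and 5). Syvn1, the ligase itself, was 134.8, 135, 182.4, 173.8 and 107.9 FPKM in Irs1 KO and 76.05 to 120.5 (median 91.24) in control, a log2 change of 0.60 (SE 0.17, limma adjusted p = 0.0186). Its call was lost without sgGFP replicate 1 or Irs1 KO replicate 3 or 4. Scaled to the hepatocyte markers, neither passed in Irs1 KO (0.12 for Herpud1 and 0.16 for Syvn1), nor did Herpud1 in Tbx3 KO (0.26), where it also missed when only those 2 groups were fitted.

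Edem1, which delivers glycoproteins with trimmed mannose to ERAD, was the single member that rose in Bcl6 KO. It was 496.2, 392.2, 456, 567.6 and 466.4 FPKM there and 297.7 to 399.9 (median 357.5) in control, where only Bcl6 KO replicate 2 overlapped. The log2 change was 0.43, with an SE of 0.10 (limma adjusted p = 0.00325), and the call was kept without any single liver, but scaled to the hepatocyte markers the change was -0.06. In Irs1 KO it was 451.8, 469, 436.8, 452.3 and 404.6 FPKM, above all controls, a log2 change of 0.34 (SE 0.10, limma adjusted p = 0.0202) that was lost without sgGFP replicate 1 or Irs1 KO replicate 2, and was -0.10 when scaled to the hepatocyte markers. Sel1l, the partner that stabilises the HRD1 ligase, was 263.6, 209.5, 260.6, 255.3 and 217.8 FPKM in Irs1 KO and 171.3 to 227.6 (median 187.3) in control. Its log2 change of 0.31 (SE 0.10, limma adjusted p = 0.0459) was past the threshold by little, 14 of the 34 fits without 1 liver lost it, as did those with no filter, with array weights and of 2 groups alone, and scaled to the hepatocyte markers it was -0.13. Derl3, a channel component that was 0 to 17.02 FPKM over all livers and listed at 0 in 1, passed nowhere.

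Among the sensors, Ern1 alone passed. It was 64.76, 71.1, 84.89, 80.21 and 61.66 FPKM in Irs1 KO and 42.62 to 59.06 (median 44.42) in control, with no overlap, and its log2 change was 0.59 (SE 0.12, limma adjusted p = 0.00144). The call was kept without any single liver, but scaled to the hepatocyte markers the change was 0.15 and did not pass. Eif2ak3 and Atf6 had log2 changes of 0.10 (SE 0.21) and 0.01 (SE 0.10) in the same livers. Xbp1 was 214.8, 237.9, 291.6, 250.9 and 235 FPKM in Irs1 KO and 162.2 to 250 (median 195.7) in control, a log2 change of 0.32 (SE 0.14, limma adjusted p = 0.154). Its log2 change was between -0.02 and 0.08 in the other knockouts. Sec61b and Ssr3, parts of the channel through which proteins enter the ER and of its associated complex, passed in 0 comparisons.

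In the same Irs1 KO livers Atf4, Ddit3 and the ATF4 branch targets did not pass. Atf4 itself was 199, 247.2, 255.6, 250.8 and 222.5 FPKM against 163.1 to 270 (median 202.6) in control, a log2 change of 0.20 (SE 0.17, limma adjusted p = 0.478). Ddit3, which encodes the pro-apoptotic factor CHOP, was 53.86, 87.47, 99.98, 85.49 and 73.46 FPKM against 43.89 to 181.3 (median 68.2), a log2 change of 0.10 (SE 0.30). Trib3, a pseudokinase induced by CHOP and ATF4, had a log2 change of -0.06 (SE 0.48). Asns, asparagine synthetase, was 1.15, 3.664, 8.282, 0.5712 and 1.115 FPKM against 0.4113 to 9.097 (median 2.367), a log2 change of -0.02 (SE 0.70). Chac1, which degrades glutathione, and Sesn2, a stress-induced inhibitor of mTORC1, had log2 changes of 0.40 (SE 0.37) and 0.08 (SE 0.26). The SE of Trib3 and Asns were wider than that of any member that rose, and what sets them was not tested. Asns was listed at 0 in 3 livers (Smyd2 KO replicate 3, Tbx3 KO replicates 2 and 5) and Trib3 in 1 (Bcl6 KO replicate 4). Atf4, Ddit3, Trib3, Chac1, Asns and Sesn2 passed in 0 of the 5 comparisons with control.

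Atf3 is induced by ATF4 in ER stress but also by many other signals, such as cytokines and growth factors. Its FPKM was 2.119, 2.25, 1.11, 2.105 and 3.361 in Irs1 KO, all below the control range of 5.523 to 27.46 (median 11.3). The log2 change on the FPKM + 1 scale was -1.99 (SE 0.46, limma adjusted p = 0.00517), and the call was kept in all 34 fits without 1 liver and in the 10 other settings. Within the control, the 4 sgGFP livers held 13.43, 15.14, 27.46 and 9.171 FPKM and the 2 sgLacZ livers 5.523 and 6.874. Of 15 immediate early genes, which are induced within minutes by handling, growth factors or stress, 3 also fell in Irs1 KO (Jun, Btg2 and Klf6) and 0 rose, with a list median of -0.55. Jun was 23.9 ± 3.2 FPKM (SD, n = 5) in Irs1 KO and 68.4 ± 13.3 (SD, n = 6) in control, a log2 change of -1.47. The summed FPKM of the 15 genes was 253.4 to 279.8 in Irs1 KO and 328.2 to 632.4 in control. Their part in the lower Atf3 was not tested.

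**Figure D3:**
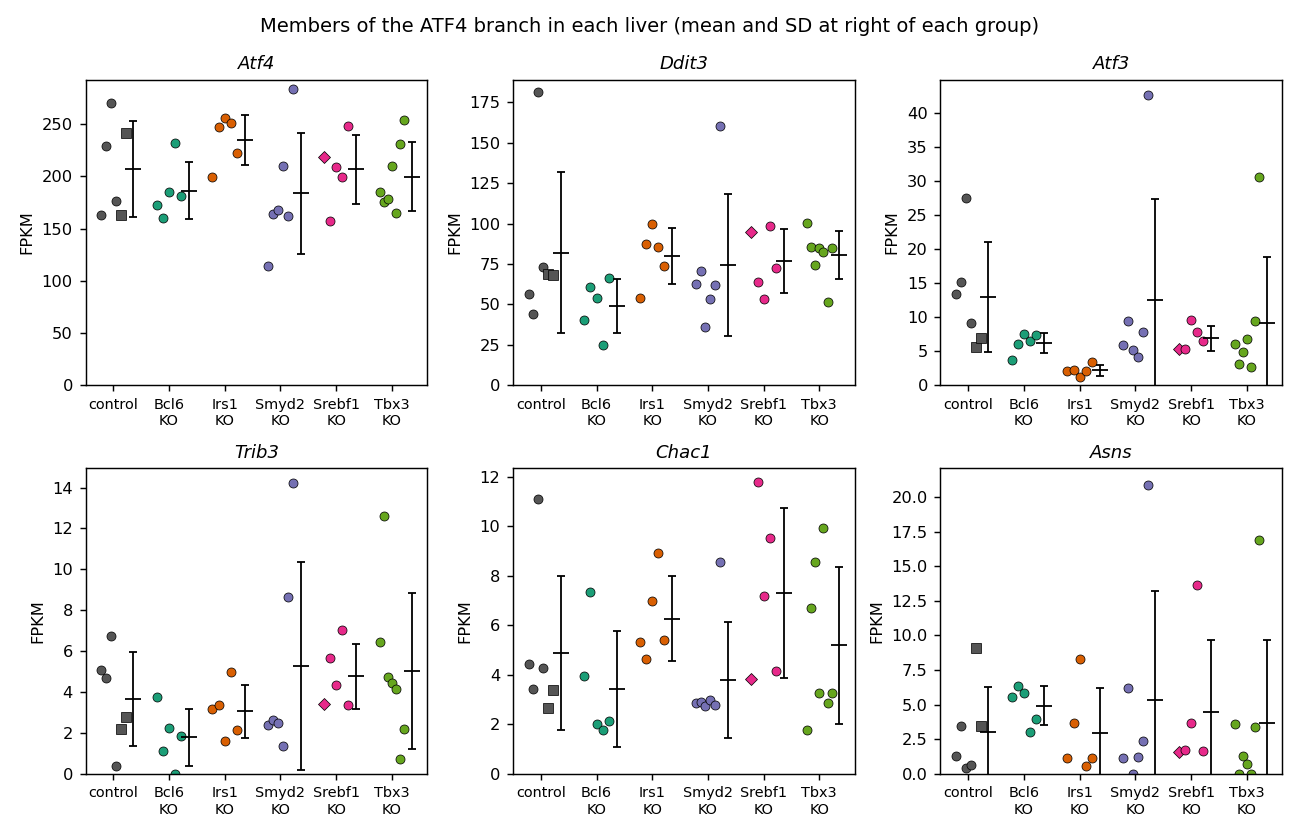
FPKM of 6 members of the ATF4 branch in each liver, by group, with the mean and SD beside each group and the same symbols as for the ER members. Single livers stand far above their group, such as Smyd2 KO replicate 6 (Atf3 at 42.57, Asns at 20.9) and Tbx3 KO replicate 7 (Atf3 at 30.55, Asns at 16.89), and 4 of the 5 Irs1 KO livers hold the 4 lowest Atf3 values.

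Single livers set much of the spread in this branch. Smyd2 KO replicate 6 held the highest Atf4, Atf3, Trib3 and Asns of all 34 livers, at 284.1, 42.57, 14.22 and 20.9 FPKM. Its Hspa5 and Hyou1, at 2133 and 431.3, lay within the range of the other Smyd2 KO livers. The library labelled Srebf1 KO replicate 1 held the highest level of all 34 livers in 9 members, all of them ER proteins (Hspa5, Dnajb9, Dnajb11, Dnajc3, Pdia3, Pdia4, Pdia6, Sel1l and Syvn1), while its Asns was 1.594 and its Atf3 5.34 FPKM.

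Without that library, whose Srebf1 mRNA lay inside the control range, the Srebf1 KO group still had 0 members past the threshold. Whether its Srebf1 gene was edited was not tested. The smallest limma adjusted p-values were then 0.131 for Sdf2l1 and 0.133 for Hyou1, with log2 changes of 0.95 (SE 0.26) and 0.66 (SE 0.18), and 53 of all genes passed. Pdia6 then had a log2 change of 0.57 and Pdia4 of 0.49, with limma adjusted p-values of 0.192 and 0.173. For Hsp90b1, Pdia3 and Dnajc3 it was 0.41, 0.40 and 0.38, with limma adjusted p-values of 0.21, 0.297 and 0.219. With the sgGFP livers alone as control, 9 members rose in Srebf1 KO (Hyou1, Hsp90b1, Dnajb11, Dnajc3, Pdia3, Pdia4, Pdia6, Canx and Ssr3), and without sgLacZ replicate 2 alone, 4 rose (Hyou1, Dnajc3, Pdia4 and Pdia6). With sgGFP alone 16 members rose in Irs1 KO and 5 in Tbx3 KO. Without sgLacZ replicate 2, Tbx3 KO had 4 (Hyou1, Hsp90b1, Creld2 and Herpud1). The share of all genes that passed with these other controls is not given here, so these counts are not read as particular to the members.

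Whether the members differed between knockouts was asked directly with an F test among the 5 knockouts. Of the 32 members, 9 passed (Hyou1, Hsp90b1, Pdia4, Herpud1, Ern1, Syvn1, Edem1, Calr and Canx), against 14.5% of all genes. The pairs were compared within these 9, with p-values from limma adjusted over all genes. Because the 9 had to pass the F test, each count is given beside the share that differed among all genes and then among the genes that also passed the F test. Between Bcl6 KO and Irs1 KO, 7 of the 9 differed and were lower in Bcl6 KO (11.3% of all genes and 60.4% of the 2791 genes that passed the F test differed), among them Hyou1 by -0.98 (SE 0.18, limma adjusted p = 0.000212), Syvn1 by -0.72 (SE 0.17) and Ern1 by -0.54 (SE 0.12). Between Bcl6 KO and Srebf1 KO, 5 of the 9 differed, all lower in Bcl6 KO (8.76% and 50.4%), led by Pdia4 at -0.68 (SE 0.14, limma adjusted p = 0.00135) and Canx at -0.46 (SE 0.10). Between Bcl6 KO and Tbx3 KO, 3 differed (9.31% and 51.2%): Hsp90b1 and Canx were lower in Bcl6 KO, by -0.40 and -0.32, and Edem1 was 0.32 higher there. Edem1 was also 0.36 higher in Bcl6 KO than in Smyd2 KO, the 1 member to differ between them (5.83% and 36.9%). Between Irs1 KO and Smyd2 KO, 2 differed, Hyou1 by 0.70 and Ern1 by 0.45, both higher in Irs1 KO (4.26% and 23.5%). Beside these shares, the counts show nothing particular to the members.

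No difference among the 9 members passed between Irs1 KO and Srebf1 KO (1.6% of all genes and 10.8% of those that passed the F test), Irs1 KO and Tbx3 KO (2.81% and 18.1%), Smyd2 KO and Srebf1 KO (0.0777% and 0.537%), Smyd2 KO and Tbx3 KO (0.902% and 6.2%) or Srebf1 KO and Tbx3 KO (0.943% and 6.52%). With all 34 livers, the calls against control in Irs1 KO are therefore not shown to differ from the levels in Srebf1 KO or Tbx3 KO. Without the library labelled Srebf1 KO replicate 1, a fit of these pairs added after the data were seen, 2 of the 9 were higher in Irs1 KO than in Srebf1 KO: Ern1 by 0.49 (SE 0.13, limma adjusted p = 0.0366) and Syvn1 by 0.56 (SE 0.15, limma adjusted p = 0.045). In that fit 4 of the 9 were lower in Bcl6 KO than in Srebf1 KO (Hsp90b1, Pdia4, Calr and Canx). Hyou1 just missed the threshold at -0.59 (limma adjusted p = 0.0501). The 9 had been picked by the F test on all 34 livers. The share of all genes that differed in that fit is not given here, so its counts are not read as particular to the members. Hspa5, Sdf2l1, Creld2, Dnajb9, Dnajb11 and Sel1l rose in Irs1 KO but did not pass the F test, and neither did Atf3.

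The members also varied from liver to liver within groups. After each group's mean was subtracted, the Pearson r of Hspa5 over the 34 livers was above 0 with all 31 other members (median 0.43). It was above 0 with 11346 of the 19294 other genes tested (median 0.05). Some members were near 0, such as Sesn2 (0.06), and Spearman rho was below 0 for Chac1 (-0.07) and Atf3 (-0.0008). Manf (r = 0.89, Spearman rho = 0.89, permutation p = 1e-05 for both, the smallest the 100000 permutations can give) and Dnajb9 (r = 0.76, rho = 0.73, permutation p = 2e-05 for both) passed after adjustment over all genes, both at an adjusted p of 0.0482, as 0.0311% of all genes did. Syvn1 (r = 0.72), Pdia3 (r = 0.71) and Hyou1 (r = 0.70) came next, at adjusted permutation p-values of 0.0526, 0.0526 and 0.149. Without the 2 livers farthest from the median of Hspa5, Srebf1 KO replicate 1 and sgGFP replicate 3, r was 0.86 with Manf, 0.70 with Dnajb9 and 0.62 with Syvn1. Without the library labelled Srebf1 KO replicate 1 alone, 0 members passed. A gene at the smallest possible permutation p passes the adjustment only if several other genes come near it. A count of 0 therefore need not mean that a correlation was lost. Within the control, Smyd2 KO and Tbx3 KO groups taken singly, r with Hspa5 was 0.94, 0.83 and 0.91 for Manf. It was 0.93, 0.31 and 0.82 for Dnajb9, and 0.97, 0.53 and 0.14 for Hyou1. Sdf2l1, although it rose in Irs1 KO, had an r of 0.09 with Hspa5 within groups.

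Asns gave another picture. Its correlations with the 31 other members had a median of 0.06, beside 0.08 with all other genes, and none passed, as for 0.0% of all genes. The highest were with Eif2ak3 (r = 0.66, rho = 0.53, adjusted permutation p = 0.122) and Atf3 (r = 0.51, rho = 0.38, adjusted permutation p = 0.252), and with Hspa5 r was 0.11. The correlation with Atf3 rested on Smyd2 KO replicate 6 and Tbx3 KO replicate 7, without which r was 0.03. With Eif2ak3 it was then 0.49. Among the 14 chaperones, J proteins and isomerases the median r over the 91 pairs was 0.54, among Atf4, Ddit3, Atf3, Trib3, Chac1, Asns and Sesn2 it was 0.29 over 21 pairs, and between these sets it was 0.12 over 98 pairs. The closest pairs were Hspa5 with Manf, Hsp90b1 with Pdia4 (0.87) and Hsp90b1 with Canx (0.86). These r are descriptions. The genes of a pair share a library and its depth.

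**Figure D4:**
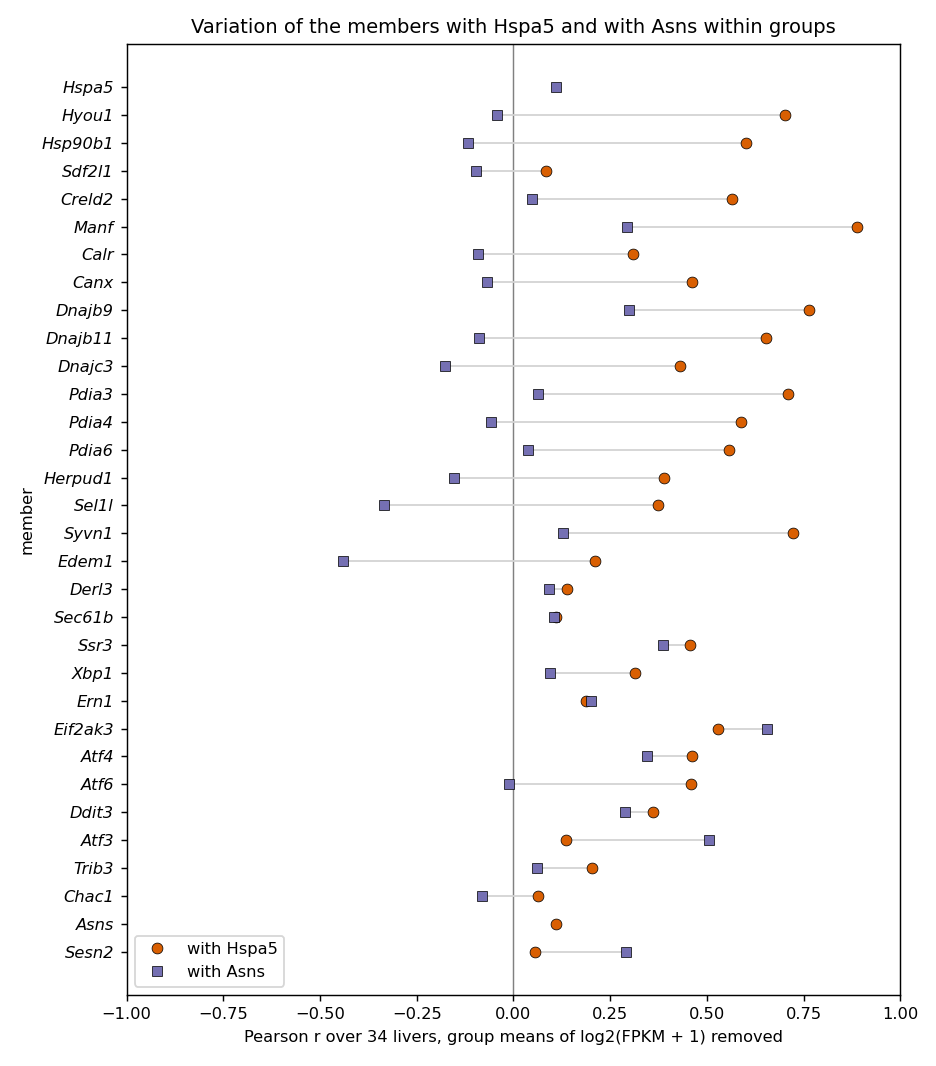
Pearson r of each member with Hspa5 (circles) and with Asns (squares) over 34 livers, from log2(FPKM + 1) with the group means removed. Manf (0.89), Dnajb9 (0.76) and Hyou1 (0.70) are among the highest with Hspa5 over all groups, and Eif2ak3 (0.66) and Atf3 (0.51) lie highest with Asns.

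Members with and without the ERSE rose in Irs1 KO. Of the 9 members with the element in the window, 4 rose (Creld2, Hsp90b1, Hspa5 and Syvn1), and of the 20 others with a window, 7 did. Canx and Calr, which carry it as well, did not pass against control. Asns and Atf3, both with a CARE, had log2 changes of -0.02 and -1.99 in Irs1 KO.

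Outside the 32 members, other genes of the same pathways were tallied from lists by role. Of the 151 tested, 18 rose and 9 fell in Irs1 KO (3.24% and 7.61% of all genes). The counts were 5 and 2 in Bcl6 KO (2.95% and 3.19%) and 4 and 1 in Tbx3 KO (1.17% and 1.37%). They were 2 and 0 in Srebf1 KO (0.197% and 0.181%) and 0 and 0 in Smyd2 KO (0.0% and 0.0%). Of 25 other genes of ER folding and oxidation, 4 rose in Irs1 KO (Pdia5, Ganab, Ero1lb and Uggt1) and 1 fell (Dnajc10, named after its value was seen), with a list median of 0.08. Pdia5, a disulfide isomerase, was 349 ± 87.6 FPKM (SD, n = 5) against 203 ± 46.9 (SD, n = 6) in control, a log2 change of 0.77 (SE 0.17, limma adjusted p = 0.00326). Ero1lb, the oxidase that recharges such isomerases, had a log2 change of 0.92 (SE 0.24, limma adjusted p = 0.0111). Of 25 other ERAD genes, 2 rose (Os9 and Vimp) and 0 fell, and of 34 genes of translocation and of ER to Golgi traffic, 5 rose (Lman1, Ssr1, Sec63, Sec62 and, named after its value was seen, Sec23b) and 0 fell. Lman1, a cargo receptor for coagulation factors, was 1034 ± 79.3 FPKM in Irs1 KO (SD, n = 5), 1009 ± 75.8 in Srebf1 KO (SD, n = 5) and 751 ± 105 in control (SD, n = 6). It rose in both, by 0.47 and 0.43. In Srebf1 KO, P4hb, the best known disulfide isomerase, rose as well, by 0.38 (SE 0.08, limma adjusted p = 0.0303), from 1468 ± 158 (SD, n = 6) to 1909 ± 209 FPKM (SD, n = 5). Without the library labelled Srebf1 KO replicate 1, P4hb still passed there (0.41, limma adjusted p = 0.0379) and Lman1 did not (0.43, limma adjusted p = 0.0704).

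Creb3l3, a liver ER-membrane factor of the ATF6 kind, was the 1 gene to pass among 14 tested other sensors and factors in Irs1 KO (log2 change 0.34, limma adjusted p = 0.0359) and in Tbx3 KO (0.47, limma adjusted p = 0.00593). Of 14 kinases, phosphatase subunits and partners of eIF2, 3 fell in Irs1 KO and 0 rose. Eif2ak4, the kinase that senses uncharged tRNA, was 64.3 ± 10.4 FPKM (SD, n = 5) against 104 ± 10.4 (SD, n = 6), a log2 change of -0.70 (SE 0.14, limma adjusted p = 0.00119), and the others were Eif2b3 (-0.60) and Impact (-0.40). Of 27 other ATF4 targets, 4 rose and 5 fell, with a median of -0.52. The 4 with the smallest adjusted p were Gpt2 (-0.68), Vldlr (-1.88), Cth and Mthfd1l. Cth, cystathionine gamma-lyase, rose by 1.09 and Mthfd1l, a mitochondrial folate enzyme, fell by 2.08. Of 12 cytosolic tRNA synthetases, 2 rose (Eprs and Aars). Of 17 cytosolic heat shock genes and of 12 mitochondrial chaperones and proteases, 0 passed in Irs1 KO. In Tbx3 KO the cytosolic Hsp90ab1 rose by 0.48 (limma adjusted p = 0.029). Vldlr had a log2 change of -3.085 there (limma adjusted p = 2.565e-07), and Cth (0.79), Tars (0.65) and Os9 (0.41) rose beside Creb3l3. In Bcl6 KO the tRNA synthetase gene Cars rose by 1.12 (limma adjusted p = 1.026e-05). Creb3l2 (0.75), Eif2b4 (0.62), Mcfd2 (0.32) and Ganab (0.30) also rose there, and Gpt2 (-0.61) and Ufd1l (-0.39) fell.

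Cell type markers also moved in the knockouts. In Irs1 KO, 6 of 12 hepatocyte markers rose and 0 fell (median 0.43), beside 3.24% and 7.61% of all genes. Of 12 stellate cell and fibroblast markers, 7 fell and 1 rose (median -0.67), and of 13 macrophage markers, 3 fell and 0 rose (median -0.78). Of 10 endothelial markers, 2 fell and 0 rose, with a median of -0.06 and 4 changes above 0. All 8 cholangiocyte markers had changes below 0 there (median -0.92), of which 1 passed. The summed FPKM of the stellate list was 1170 to 1406 in Irs1 KO and 1400 to 2268 in control, and that of the macrophage list 750.5 to 1337 against 1011 to 2051. In Tbx3 KO (1.17% of all genes higher and 1.37% lower), 3 of 12 stellate cell and fibroblast markers fell and 0 rose (median -0.71). There 2 hepatocyte markers rose and 1 fell. In Bcl6 KO (2.95% and 3.19%), 7 hepatocyte and 3 of 10 endothelial markers rose and 0 fell. All 8 cholangiocyte markers had changes below 0 there (median -1.09), of which 1 passed. In Srebf1 KO, where 0 members passed, the medians were -0.61 for stellate cells and fibroblasts, -0.54 for macrophages and -0.76 for cholangiocytes. For hepatocytes the median was 0.27, and no marker of these lists passed there. The part of these cell types in the members' changes was not tested. Scaled to the hepatocyte markers, Hyou1, Sdf2l1 and Creld2 still rose in Irs1 KO, and Hsp90b1, Sel1l and Edem1 had log2 changes below 0 there, as had Edem1 in Bcl6 KO. Of the B and plasma cell list, whose cells have a large ER, 0 of 7 tested genes passed in Irs1 KO. The list summed to 348.4 to 474.7 FPKM there (median 403.9) and 259 to 487.3 in control (median 378.5). Most of that was 1 gene, Sdc1, with a mean of 400.4 FPKM in Irs1 KO and 350.1 in control. The sum therefore says little of the other genes of the list. Tnfrsf17 of that list was at 0 in all livers of control and of Bcl6, Smyd2 and Srebf1 KO. It was above 0 in 1 of 5 Irs1 KO livers (0.498 FPKM) and 1 of 7 Tbx3 KO livers (0.583 FPKM). Of the pancreatic acinar list, another cell type rich in ER, 2 of 10 genes passed the filter, and the list summed to at most 16.85 FPKM in any liver.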

How the data were processed

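The authors deposited 1 table of FPKM values, with a row per gene symbol and a column per liver, and did not pool livers. Reads were counted with featureCounts 1.6.4, per the submitters' processing notes, which also name the builds mm10 and GRCh38 without a role. How reads were aligned, with which annotation and strand setting, is not given in the sources used here. Columns sum to 2790000 to 3090000 FPKM, so a gene's value may add up several transcripts, and levels were not compared between genes. Without a known strand setting, reads of overlapping or antisense genes cannot be told apart.

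The test was limma 3.58.1 (R 4.3.3, eBayes with trend) on log2(FPKM + 1), 2-sided, with 6 levels (5 knockouts and the pooled sgGFP and sgLacZ control), on genes for which at least 5 livers had an FPKM not under 1. Fold changes on this scale understate those of low genes. P-values were adjusted by Benjamini-Hochberg over every gene that passed the filter, and 0.05 was the threshold. The knockouts were compared with limma's F test, and pairs were read only where it passed. Correlations with 2 chosen members, Hspa5 and Asns, used values with group means removed and 100000 permutations within groups (Python 3.11.15, numpy 2.4.6, scipy 1.17.1, pandas 2.3.3). Their adjustment had been planned over the members alone and was made over all genes. Motifs were searched on both strands of RefSeq windows (GRCm38.p6). The fit was tested on simulated data.

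The members and all gene lists were chosen with earlier results of these data known. Members past the threshold, the best known member of each role and members listed at 0 were given by liver. From each other list up to 4 genes past the threshold per comparison were named, by smallest adjusted p. Alternatives were another pseudocount, other filters, median and quantile scaling, a replicate block, array weights, sgGFP alone as control, 2 groups alone, each liver left out, and, added after the data were seen, scaling to hepatocyte markers and the pairs of knockouts without Srebf1 KO replicate 1. Replicate numbers did not pair livers: over 83 pairs of livers with 1 number in different groups, the median correlation of deviations was -0.0047. No 2 columns were identical (highest correlation 0.984).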

Additional observations from a re-analysis of the deposited data

Results flagged for a closer look

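In 16 of 192 combinations of a member and a group, the highest or the lowest liver stood apart from its group by Dixon's criterion. Chance meets it in about 1 of 20 for normally distributed values. It was applied to FPKM that were not on a log scale, so the 16 cannot be set against that rate. Genes of the ATF4 branch gave most of the 16. Asns was 20.9 FPKM in Smyd2 KO replicate 6 (next highest 6.22), 16.89 in Tbx3 KO replicate 7 (next 3.63), 13.67 in Srebf1 KO replicate 4 (next 3.65) and 9.097 in sgLacZ replicate 1 (next 3.48). Atf3 was 42.57 FPKM in Smyd2 KO replicate 6 (next 9.37) and 30.55 in Tbx3 KO replicate 7 (next 9.45). Ddit3 was 181.3 FPKM in sgGFP replicate 3 (next 73.2) and 160.5 in Smyd2 KO replicate 6 (next 70.7). Chac1 was 11.11 FPKM in sgGFP replicate 3 (next 4.44) and 8.582 in Smyd2 KO replicate 6 (next 2.99).

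Among ER members, the library labelled Srebf1 KO replicate 1 stood above its group in Dnajb9 (153.4 FPKM, next 87.3), Dnajb11 (173.7, next 134.3) and Syvn1 (200.8, next 111.9). Srebf1 KO replicate 2 was the lowest of its group in Hsp90b1, at 2503 FPKM (next 2903). Smyd2 KO replicate 5 was the highest of its group in Sec61b, at 55.65 FPKM (next 32.7), and in Ssr3, at 465.1 FPKM (next 392.7).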

How the results depend on the processing

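Over 13 counts of members, 430 alternatives were within 1.5 times the count reported and 63 were not. Several of these counts were 0, for which only another 0 is within that limit. Many alternatives also left out a liver of a group outside the comparison, which leaves the log2 changes as they were. The 430 are therefore no measure of how firm the counts are. With the hepatocyte scaling added after the data were seen, the median of all genes was -0.56 in Bcl6 KO and in Irs1 KO. Members higher then numbered 0 in Bcl6 KO, 3 in Irs1 KO and 0 in Tbx3 KO, and members lower 20, 4 and 1. Of all 19295 genes tested, 282, 183 and 89 were higher there and 8613, 9224 and 2264 lower. Edem1 in Bcl6 KO (-0.056) and Hsp90b1 (-0.065), Sel1l (-0.13) and Edem1 (-0.10) in Irs1 KO reversed, and 14 members differed among knockouts. With median scaling members higher were 20 in Irs1 KO, 5 in Srebf1 KO and 4 in Tbx3 KO (1689, 53 and 382 of all genes). Of the members, 15 then differed among knockouts. In Srebf1 KO the count was 2 with a filter at FPKM 5, 1 after quantile normalization and 9 with sgGFP alone. In Tbx3 KO it was 5 with sgGFP alone, 0 with 2 groups alone, and 1 with a pseudocount of 0.1, no filter, quantile normalization or array weights. Without 1 liver the count was 6 to 15 in Irs1 KO, 0 to 4 in Srebf1 KO and 0 to 4 in Tbx3 KO, and 6 to 11 members differed among knockouts. With replicate number as a block, 10 members were higher in Irs1 KO and 1 (Atf3) was lower in Tbx3 KO, and the pairing of numbers is not given by the design. Members correlated with Hspa5 numbered 0 with median scaling, 1 after quantile normalization, 1 without the 2 farthest livers and 0 without Srebf1 KO replicate 1. The cause of these differences was not tested. How many of all genes passed is given here only for the median and hepatocyte scalings, so the other counts are not read as particular to the members. Hyou1, Sdf2l1 and Atf3 in Irs1 KO passed in all 34 fits without 1 liver and in the 10 other settings. The depth implied by the low values was 2110000 to 3130000 reads per liver, and its effect on the precision of low genes was not tested. The SE of Asns in Irs1 KO was 0.70, and how much of it comes from depth was not tested.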
